A study of Mus musculus with 378 samples.

Results

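Il7r, Ccr7, S1pr1, Klf2, Cd69 and Cd44 are 6 genes that T cells use to survive, to enter and leave tissue and to stay there, and their RNA is described here in T cells from mouse tumours. They are 6 of the 23420 genes in the table and were picked by name, after their measured levels in these same libraries had been seen. For that reason every value below is a description and none is tested. All 6 names were found in the table, and all 6 were read in every group of cells. The 4 groups of single cells and the 4 population libraries that go with them were read, and single-cell libraries were kept, out of 374, where they held at least 1000 genes above 0.

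The cells came from B16F10 tumours, a transplanted mouse melanoma line, grown in C57BL/6 mice that were either labelled IL27raKO, for loss of a chain of the IL-27 receptor, or were WT. KO below means the libraries with that label. Kept libraries numbered 74 of 92 in KO CD8, 67 of 94 in WT CD8, 78 of 94 in KO CD4 and 79 of 94 in WT CD4, and each of these also had 1 population library. The treatment text speaks of CD8+ cells alone, so the CD4 groups rest on the titles. No age, sex, number of mice or tumour time was given, and nothing ties a cell to a mouse. Each genotype and cell type is therefore 1 sample, and its cells are parts of it. Every group also has a word of its own in its titles, and WT CD4 titles hold p3 where the others hold p2, so genotype and these title parts cannot be told apart.

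Il27ra, the gene named in the label, did not mark the genotype at the level of RNA. It was above 0 in 39 of 74 KO CD8 and 26 of 67 WT CD8 cells, and in 41 of 78 KO CD4 and 38 of 79 WT CD4 cells. The table has a single value for the whole gene and the labels do not say which part of it was removed, so this reading checks nothing about the label, and every KO direction below rests on the label alone. Cd8a was above 0 in 94.6% of KO CD8, 83.6% of WT CD8, 7.69% of KO CD4 and 7.59% of WT CD4 cells, and Cd4 in 2.70%, 8.96%, 89.7% and 79.7% of them.

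Naive and memory T cells are kept alive by IL-7, whose signal needs the receptor chain made by Il7r. Ccr7 makes the chemokine receptor that draws these cells into lymph nodes. S1pr1 makes the receptor with which T cells sense sphingosine 1-phosphate, a lipid that is high in blood and lymph, and leave tissue along it. Klf2 makes a quiescence factor that turns on S1pr1 and other traffic genes, and it is lost after antigen receptor signals. The protein of Cd69 appears within hours of activation, binds the S1pr1 protein and takes it off the surface, so cells that carry it stay where they are. Tissue-resident memory cells are commonly recognised by Cd69 with low Klf2 and S1pr1. Cd44 makes a hyaluronan receptor that stays high after antigen experience and is used to tell memory from naive cells.

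In the GENCODE M21 annotation of GRCm38, Il7r lies on chromosome 15 from 9505788 to 9530176 on the minus strand. Ccr7 lies on chromosome 11 from 99144196 to 99155077 (minus), S1pr1 on chromosome 3 from 115710433 to 115715072 (minus), Klf2 on chromosome 8 from 72319033 to 72321656 (plus), Cd69 on chromosome 6 from 129267325 to 129275436 (minus) and Cd44 on chromosome 2 from 102811141 to 102901665 (minus). The 6 genes thus sit on 6 chromosomes. Promoters of Il7r, Klf2 and Cd44, that is 3 of the 6, are in the RefSeq table for GRCm38.p6, and Ccr7, S1pr1 and Cd69 are named only. The 250 bases before each RefSeq start are shown for the members the table holds, of which Il7r and Klf2 were called higher in KO CD8 than in WT CD8 cells below and Cd44 was not. They lie at chr15:9529877-9530126 on the minus strand, chr8:72318812-72319061 on the plus strand and chr2:102901666-102901915 on the minus strand, each read 5′ to 3′ along its gene. RefSeq and GENCODE place some starts differently: all 250 bases of the Il7r window and the last 29 of the Klf2 window lie inside the GENCODE gene, and none of the Cd44 window does. Capitals mark matches to any of 4 motifs searched on both strands: CACCC of KLF factors, TGTTTAC of FOXO factors, CAGGAAGT of ETS factors and, of MEF2 factors, CTA and TAG with any 4 bases between them.
Il7r: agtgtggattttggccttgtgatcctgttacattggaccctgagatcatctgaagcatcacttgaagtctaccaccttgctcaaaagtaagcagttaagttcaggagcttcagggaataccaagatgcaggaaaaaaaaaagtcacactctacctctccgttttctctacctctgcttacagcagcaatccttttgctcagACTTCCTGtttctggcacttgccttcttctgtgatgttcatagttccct
Klf2: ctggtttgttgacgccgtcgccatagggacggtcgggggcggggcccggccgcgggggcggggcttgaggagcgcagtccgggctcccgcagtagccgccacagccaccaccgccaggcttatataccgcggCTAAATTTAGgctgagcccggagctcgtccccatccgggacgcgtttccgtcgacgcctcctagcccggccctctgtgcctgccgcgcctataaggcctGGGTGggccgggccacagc
Cd44: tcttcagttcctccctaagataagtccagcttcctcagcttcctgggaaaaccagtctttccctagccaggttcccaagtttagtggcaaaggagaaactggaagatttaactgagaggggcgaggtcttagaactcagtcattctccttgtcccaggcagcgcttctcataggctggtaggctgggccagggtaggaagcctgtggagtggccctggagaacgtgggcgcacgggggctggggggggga

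The Il7r window held the ETS letters on the other strand, 49 to 42 bases before the start, and so did 2.69% of the 32851 promoter windows of the same length. Klf2 had the MEF2 letters nearer the middle of its window (3.20% of all windows) and the KLF letters on the other strand 19 to 15 bases before it (52.01% of all windows). No match lay in the Cd44 window, and the FOXO letters were in none of the 3 (3.17% of all windows). No 2 matches overlapped. The windows of Il7r, Klf2 and Cd44 had a G and C content of 44%, 71.2% and 56.4%, beside a median of 52.4% over all windows.

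Kept cells had medians of 2797 genes in KO CD8, 2919 in WT CD8, 2650.5 in KO CD4 and 2307 in WT CD4. Reads per cell, estimated from the 1-read steps of low values, had medians of 494848, 370373, 494520 and 262383, with the widest quartiles in WT CD8 (185210 to 905923). B2m, which nearly all nucleated cells make, was at 0 in 0 KO cells, and in 8 WT CD8 and 6 WT CD4 cells. All 3 Cd3 genes (Cd3d, Cd3e, Cd3g) were at 0 in 3 cells of KO CD8, 8 of WT CD8, 1 of KO CD4 and 3 of WT CD4. The S100a8 and S100a9 pair of neutrophils was at 0 in every cell. Of 5 B cell genes, Pax5 was at 0 in every cell, while at least 1 was above 0 in 5 KO CD8, 1 WT CD8, 4 KO CD4 and 5 WT CD4 cells, with highest summed levels of 932, 816, 1848 and 483 FPKM; the most frequent were Cd79b in 6.76% of KO CD8 cells and Cd79a in 3.80% of WT CD4 cells. Tyr, a melanoma gene, was above 0 in 95.9% of KO CD8, 98.5% of WT CD8, 94.9% of KO CD4 and 96.2% of WT CD4 cells. The 6 melanoma genes summed to medians of only 9.78, 10.08, 8.18 and 9.95 FPKM per cell. At least 3 of them were in 0, 2, 0 and 4 cells. A value above 0 can thus be a low one. In the population libraries, class II and dendritic cell genes summed to 21142 FPKM in KO CD8, 208.1 in WT CD8, 5296 in KO CD4 and 7559 in WT CD4, and melanoma genes to 45.9, 14637, 37.5 and 85.7 FPKM. What part these played in the population values of the 6 genes was not tested. In those libraries fewer cells with a gene and less of its RNA per cell cannot be told apart.

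FPKM is a level per transcript length, so the 6 genes can be set side by side. Over the cells that held Cd69 or Ccr7 RNA, the median level of a group was between 511 FPKM (Cd69 in WT CD8) and 1208 FPKM (Cd69 in KO CD4), while the median of cells with Klf2 lay between 40.5 FPKM in KO CD8 and 233.2 FPKM in WT CD4. Cd44 was the gene found in most cells of KO CD8, WT CD8 and KO CD4, and Il7r in WT CD4. In each group at least 1 cell had 0 FPKM of each gene, so the ranges over cells overlapped between all groups, and the groups differed in how many cells lay above 0 and how high these were.

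**Figure D1:**
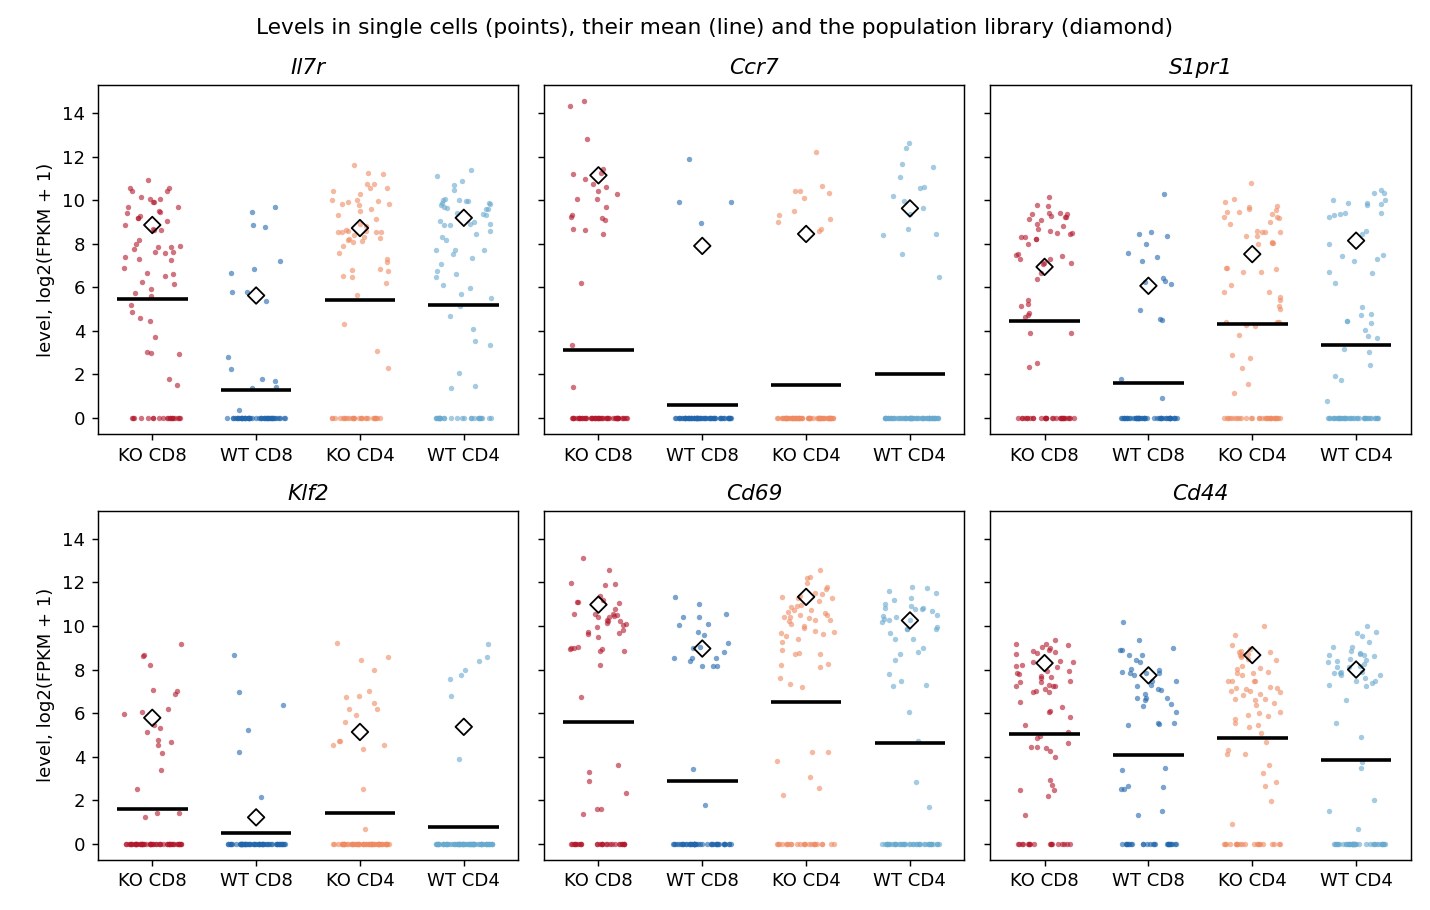
Level of the 6 genes in each kept cell, as log2(FPKM + 1), for KO CD8 (74 cells), WT CD8 (67), KO CD4 (78) and WT CD4 (79). Points are cells, lines their mean and diamonds the 1 population library of each group. Values split into cells at 0 and cells mostly above 4, and for Il7r the WT CD8 mean (1.29) lies far below the other 3 (5.21 to 5.49).

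Il7r, the IL-7 receptor chain, was frequent in all groups but WT CD8. It was above 0 in 54 of 74 KO CD8 cells (72.97%, exact 95% interval 61.4 to 82.6%) and 17 of 67 WT CD8 cells (25.4%, 15.5 to 37.5%). Among CD4 cells, Il7r was present in 50 of 78 KO (64.1%, 52.4 to 74.7%) and 52 of 79 WT (65.8%, 54.3 to 76.1%). These intervals cover counting error only. The WT CD8 interval lay below the other 3, which overlapped each other. Its highest cell had 1941 FPKM in KO CD8, 824 in WT CD8, 3139 in KO CD4 and 2715 in WT CD4, and the medians over all cells were 98.8, 0, 150 and 87.7 FPKM. Among cells with Il7r, the median was 229.1 FPKM in KO CD8 and 54.4 FPKM in WT CD8, so both the share of cells and the level within them were higher in KO. The mean log2(FPKM + 1) was 5.49 ± 3.94 in KO CD8 and 1.29 ± 2.73 in WT CD8 (SD over cells), a difference of 4.20. That is the highest of 9031 genes compared. In KO CD4 and WT CD4 the means were 5.44 ± 4.39 and 5.21 ± 4.29, a difference of 0.23. The population libraries had 464 FPKM in KO CD8, 48.4 in WT CD8, 421 in KO CD4 and 584 in WT CD4, so WT CD8 was again the lowest.

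Ccr7, the lymph node homing receptor, was in few cells and at high levels where present. It was above 0 in 24 of 74 KO CD8 cells (32.4%, 22 to 44.3%), 4 of 67 WT CD8 cells (5.97%, 1.65 to 14.6%), 12 of 78 KO CD4 cells (15.4%, 8.21 to 25.3%) and 16 of 79 WT CD4 cells (20.3%, 12.04 to 30.8%). Only the KO CD8 and WT CD8 intervals were apart. The median over all cells was 0 in each group. In cells with Ccr7 the median was 1057, 964, 910 and 1077 FPKM, nearly the same in all 4 groups, though that of WT CD8 rests on 4 cells. By these medians the groups differed in the number of cells. The mean level also differed through a few cells, as the 2 highest KO CD8 cells held 60.5% of the summed Ccr7 FPKM of that group. The highest cells had 24229 FPKM in KO CD8, 3749 in WT CD8, 4677 in KO CD4 and 6275 in WT CD4. Mean log2(FPKM + 1) was 3.13 ± 4.84 in KO CD8 and 0.61 ± 2.44 in WT CD8, a difference of 2.53, and 1.52 ± 3.60 in KO CD4 and 2.01 ± 4.09 in WT CD4, a difference of -0.50. The population libraries held 2262 FPKM in KO CD8, 238.2 in WT CD8, 349.1 in KO CD4 and 789 in WT CD4. Ccr7 is also made by mature dendritic cells, and class II genes were likewise highest in the KO CD8 population library. In single KO CD8 cells Ccr7 was in 4 of 10 cells with at least 3 macrophage, class II or dendritic genes and in 20 of the other 64. Its mean log2(FPKM + 1) was 4.44 in those 10 cells and 2.93 in the other 64.

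S1pr1, the egress receptor, was above 0 in 44 of 74 KO CD8 cells (59.5%, 47.4 to 70.7%) and in 17 of 67 WT CD8 cells (25.4%, 15.5 to 37.5%). KO CD4 cells had it in 48 of 78 (61.5%, 49.8 to 72.3%) and WT CD4 cells in 39 of 79 (49.4%, 37.9 to 60.9%). WT CD8 was below the other 3, though its upper bound and the lower bound of WT CD4 were close. Cells with S1pr1 had medians of 295.7 FPKM in KO CD8, 84.1 in WT CD8, 259.1 in KO CD4 and 159.2 in WT CD4. The highest cell of each group reached 1149, 1232, 1785 and 1412 FPKM, and the medians over all cells were 30.8, 0, 20.2 and 0 FPKM. The mean log2(FPKM + 1) was 4.44 ± 4.00 in KO CD8 and 1.61 ± 3.02 in WT CD8, a difference of 2.84, against 4.30 ± 3.95 in KO CD4 and 3.34 ± 3.97 in WT CD4, a difference of 0.96. The population libraries gave 121.8 FPKM in KO CD8, 66.2 in WT CD8, 183.2 in KO CD4 and 281.7 in WT CD4, so between the CD4 libraries the direction was the other way.

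Klf2, the quiescence factor, had the lowest mean FPKM of the 6 in every group (33.3 in KO CD8, 10.01 in WT CD8, 30.3 in KO CD4 and 26.1 in WT CD4). It was above 0 in 22 of 74 KO CD8 cells (29.7%, 19.7 to 41.5%), 6 of 67 WT CD8 cells (8.96%, 3.36 to 18.5%), 19 of 78 KO CD4 cells (24.4%, 15.3 to 35.4%) and 8 of 79 WT CD4 cells (10.1%, 4.47 to 19%). In CD8 the KO interval lay above that of WT, and in CD4 the intervals overlapped. Its median was 0 FPKM in every group and its highest cells had 574, 405, 586 and 568 FPKM in KO CD8, WT CD8, KO CD4 and WT CD4. In the cells that had it the medians were 40.5, 59.3, 72.7 and 233.2 FPKM, so more KO cells held Klf2 but not at higher levels. The mean log2(FPKM + 1) was 1.59 ± 2.77 in KO CD8 and 0.50 ± 1.73 in WT CD8, a difference of 1.09, and 1.43 ± 2.72 in KO CD4 and 0.76 ± 2.33 in WT CD4, a difference of 0.66. In the population libraries it was 54.1 FPKM in KO CD8, 1.32 in WT CD8, 34.1 in KO CD4 and 40.4 in WT CD4. The WT CD8 population value lay below the mean over the single cells of that group, 10.01 FPKM.

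Cd69, the retention gene, had the highest mean FPKM of the 6 in WT CD8 (253.2), KO CD4 (1017) and WT CD4 (610), and came after Ccr7 (997) in KO CD8 (889), where Ccr7 averaged 404.3 FPKM without its 2 highest cells. It was above 0 in 46 of 74 KO CD8 cells (62.2%, 50.1 to 73.2%) and 22 of 67 WT CD8 cells (32.8%, 21.8 to 45.4%), and in 54 of 78 KO CD4 cells (69.2%, 57.8 to 79.2%) and 39 of 79 WT CD4 cells (49.4%, 37.9 to 60.9%). The CD8 intervals were apart and the CD4 ones overlapped. Most cells held either none or much of it: among cells with Cd69 the lower quartile was already 493, 345.9, 422 and 428 FPKM and the median 1056, 511, 1208 and 1164 FPKM in KO CD8, WT CD8, KO CD4 and WT CD4. The highest cells had 8785, 2538, 6162 and 3553 FPKM. Mean log2(FPKM + 1) was 5.61 ± 5.02 in KO CD8 and 2.88 ± 4.33 in WT CD8, a difference of 2.73, and 6.53 ± 4.85 in KO CD4 and 4.62 ± 4.98 in WT CD4, a difference of 1.90. The population libraries differed in the same directions, with 2020 FPKM in KO CD8 and 498 in WT CD8, and 2584 in KO CD4 and 1220 in WT CD4.

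Cd44, the hyaluronan receptor, was common in every group. It was above 0 in 56 of 74 KO CD8 cells (75.7%, 64.3 to 84.9%), 42 of 67 WT CD8 cells (62.7%, 50.01 to 74.2%), 57 of 78 KO CD4 cells (73.1%, 61.8 to 82.5%) and 41 of 79 WT CD4 cells (51.9%, 40.4 to 63.3%). From high to low the order was KO CD8, KO CD4, WT CD8 and WT CD4, and the intervals of neighbours overlapped while those of KO CD8 and WT CD4 did not. Cells with Cd44 had medians of 154.6, 135.4, 130.2 and 278.1 FPKM, with WT CD4 the highest, and the highest cells had 660, 1171, 1020 and 1029 FPKM. Mean log2(FPKM + 1) was 5.05 ± 3.42 in KO CD8 and 4.08 ± 3.64 in WT CD8, a difference of 0.97, and 4.88 ± 3.43 in KO CD4 and 3.86 ± 4.06 in WT CD4, a difference of 1.02. Without the cells that lacked B2m or all 3 Cd3 genes, the CD8 difference was 0.05 and that in CD4 was 0.57, with Cd44 in 74.6% of KO CD8 and 75% of WT CD8 cells. The population libraries had 313.2 FPKM in KO CD8, 211.6 in WT CD8, 404.4 in KO CD4 and 254.98 in WT CD4.

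**Figure D2:**
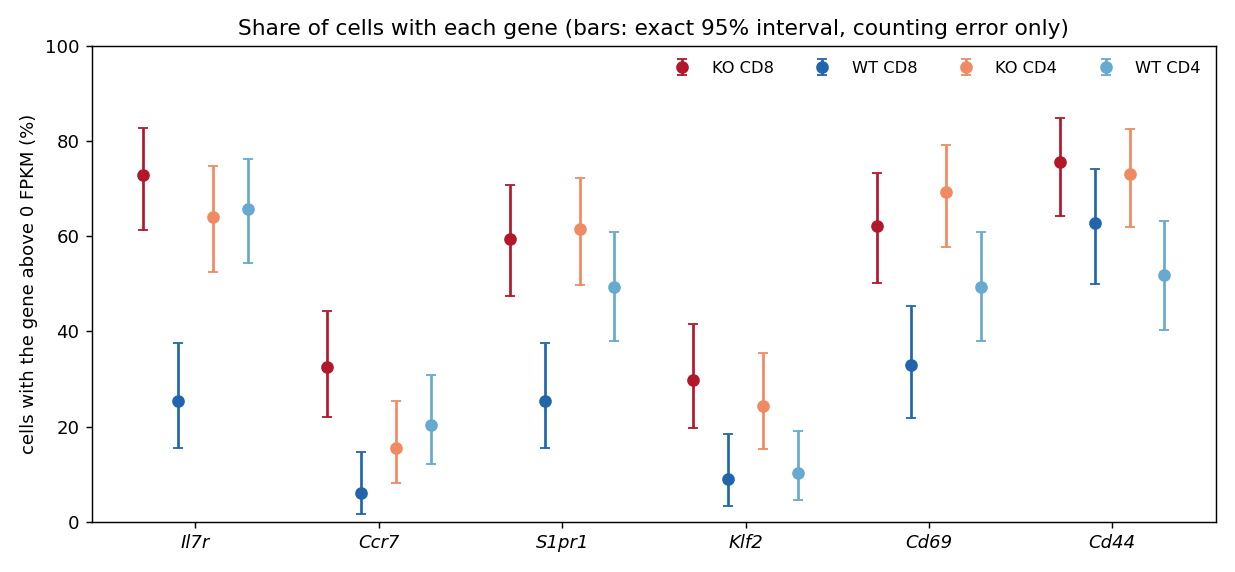
Share of kept cells above 0 FPKM for each gene, in percent, with exact 95% intervals that cover counting error only, in the order KO CD8, WT CD8, KO CD4 and WT CD4. For Il7r, Ccr7, S1pr1, Klf2 and Cd69 the KO CD8 interval lies above that of WT CD8, while the CD4 intervals overlap for all genes.

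The shares were also read at 1 depth, a step added after seeing the data. When each cell was thinned to 100000 estimated reads, with 1, 14, 1 and 10 cells of KO CD8, WT CD8, KO CD4 and WT CD4 left out as shallower, Il7r was expected in 70.1% of KO CD8 and 20.9% of WT CD8 cells, and Ccr7 in 30.3% and 7.55%. S1pr1 was at 57.9% and 29.2%, Klf2 at 25.3% and 9.40%, and Cd69 at 57.7% and 38.4%. Cd44 came to 74.6% in KO CD8 and 72.2% in WT CD8 cells, a gap of few points, as without the cells lacking B2m or Cd3. The share in the cells used for thinning, before it, was 76.7% in KO CD8 and 75.5% in WT CD8 for Cd44. In KO CD4 and WT CD4 cells the thinned shares were 63.9% and 69.2% for Il7r, 15.6% and 21.7% for Ccr7, 57.6% and 50.4% for S1pr1, 22.2% and 10.1% for Klf2, 66.4% and 53.3% for Cd69, and 70.9% and 56.9% for Cd44. Of the 76 libraries left out for holding under 1000 genes, Il7r and S1pr1 were each in 1, Cd44 in 2 and the other 3 genes in 0, which allows a share of up to 3.95% by the limit of 3 counts (exact upper bound 4.74%). Of the 18 libraries just inside the limit, those less than 500 genes above it, Il7r was in 4, S1pr1 in 5, Cd69 in 4, and Ccr7, Klf2 and Cd44 in 2 each. Of the 17 just outside it, those up to 500 genes below it, Cd44 was in 2 and the other 5 genes in 0.

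Between CD8 cells labelled KO and WT, all 6 genes were higher in KO, and 5 of the 6 by at least 1 on the log2 scale, the size used here to call a difference, with Cd44 just under it. The median of the 6 differences was 2.63, beside -0.08 over the 9031 genes found in 10% or more of the cells of KO CD8 or of WT CD8, of which 5.94% were called higher and 3.82% lower. The genes had been chosen with these levels known, so the count is no more than a description. As ratios of mean FPKM, KO over WT, they stood at 10.8 for Ccr7, 7.38 for Il7r, 3.81 for S1pr1, 3.51 for Cd69, 3.33 for Klf2 and 1.23 for Cd44. The 2 highest KO CD8 cells held 60.5% of the summed Ccr7 FPKM and 39.7% of that of Klf2. Without the 2 KO CD8 cells highest in each gene, a step added after seeing the data, the ratio was 4.39 for Ccr7, below the 6.49 of Il7r, and 2.06 for Klf2. The population libraries had the same direction for all 6, with differences of 4.57 for Klf2, 3.24 for both Il7r and Ccr7, 2.02 for Cd69, 0.87 for S1pr1 and 0.56 for Cd44. That of Klf2 rests on a low value, 1.32 FPKM, in the 1 WT CD8 library, and over single cells Klf2 differed by 1.09. Without the cells lacking B2m or Cd3, 4 of the 6 were called, and Klf2 was at 0.97. Cells with at least 3 genes of a cell division list made up 25 of 74 KO CD8 and 43 of 67 WT CD8 cells, and all 10 genes of that list were called lower in KO CD8 (median -1.67). Tyms, of that list, was above 0 in 89.2% of KO CD8 and 97.01% of WT CD8 cells, so for most cells 2 further genes met the rule. Without the cells with at least 3 the differences were 3.41 for Il7r, 3.09 for Cd69, 3.06 for S1pr1, 2.44 for Ccr7, 0.81 for Klf2 and 0.70 for Cd44. Without the 10 KO CD8 and 5 WT CD8 cells that held at least 3 macrophage, class II or dendritic genes, 5 of the 6 were called.

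**Figure D3:**
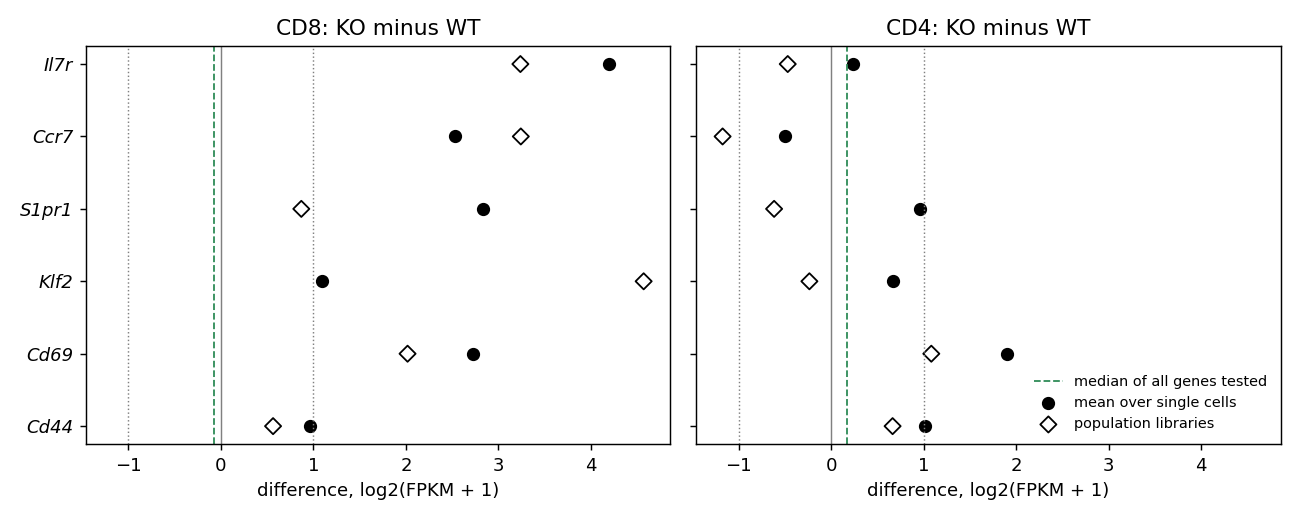
KO minus WT difference of the 6 genes in CD8 (left) and CD4 (right), on the log2(FPKM + 1) scale. Filled points are differences of means over single cells, open diamonds those between population libraries, dotted lines the size used for a call and the dashed line the median of all genes. In CD8 all points lie above 0, and in CD4 Ccr7 (-0.50) and 4 of the 6 diamonds lie below it.

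In CD4 cells labelled KO, Cd69 (1.90) and Cd44 (1.02) were called higher than in WT, 2 of the 6, and 0 were called lower. S1pr1 (0.96), Klf2 (0.66), Il7r (0.23) and Ccr7 (-0.50) were not called. The median of the 6 was 0.81, beside 0.17 over 8176 genes, of which 7.73% were called higher and 0.342% lower. Ratios of mean FPKM, KO over WT, were 1.67 for Cd69, 1.16 for Klf2, 1.14 for Il7r, 1.08 for S1pr1, 0.88 for Cd44 and 0.53 for Ccr7, so for Cd44 the ratio ran against the mean of logs. Without the 2 KO CD4 cells highest in each gene, those of Il7r (0.97), S1pr1 (0.91) and Klf2 (0.70) were below 1, and Ccr7 was at 0.31. More KO cells held Cd44, at lower levels. Between the population libraries Il7r (-0.47), Ccr7 (-1.17), S1pr1 (-0.62) and Klf2 (-0.24) were lower in KO, and Cd69 (1.08) and Cd44 (0.66) higher. With cells above 0 for Foxp3 left out, 4 of the 6 were called higher: Cd69 at 2.74, Cd44 at 1.81, Klf2 at 1.60 and Il7r at 1.22. Without cells that held 3 division genes, 1 was called higher (Cd69, 1.18) and 1 lower (Ccr7, -1.14).

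Within KO, the differences between CD8 and CD4 cells were under 1 for 5 of the 6. Ccr7 was called higher in CD8 (1.62), 1 of the 6, and 0 were called lower, where 7.7% of 8473 genes were called higher and 2.79% lower. Cd69 stood at -0.92, and Il7r, S1pr1, Klf2 and Cd44 between 0.04 and 0.17. Within WT, 4 of the 6 were called lower in CD8 than in CD4 cells, Il7r (-3.92), Cd69 (-1.74), S1pr1 (-1.73) and Ccr7 (-1.41), where 2.08% of 8961 genes were called lower and 14.1% higher. Klf2 (-0.26) and Cd44 (0.22) were not called. Il7r was among the 4 lowest of those 8961 genes. The population libraries of WT differed by -4.16 for Klf2, -3.57 for Il7r and -2.07 for S1pr1, CD8 minus CD4. The Klf2 value again rests on 1.32 FPKM in the 1 WT CD8 library. In bins of 500 genes detected, S1pr1 was at -0.56 and Ccr7 at -0.69 and 2 genes were called lower, Il7r (-3.21) and Cd69 (-1.82).

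Protein was not measured, so the step by which Cd69 protein takes S1pr1 protein off the surface could not be read here. Whether cells with Cd69 RNA lacked S1pr1 RNA was read from the counts of cells. Many held both: S1pr1 was found in 31 of 46 KO CD8 cells with Cd69 (67.4%, 51.98 to 80.5%) and in 13 of 28 without (46.4%, 27.5 to 66.1%). In WT CD8 it was in 7 of 22 cells with Cd69 (31.8%, 13.9 to 54.9%) and 10 of 45 without (22.2%, 11.2 to 37.1%). In KO CD4 it was in 32 of 54 with (59.3%, 45.03 to 72.4%) and 16 of 24 without (66.7%, 44.7 to 84.4%), and in WT CD4 in 21 of 39 with (53.8%, 37.2 to 69.9%) and 18 of 40 without (45%, 29.3 to 61.5%). The intervals overlapped in all 4 groups. By these counts S1pr1 was 21.0 points more frequent with Cd69 in KO CD8, 9.60 in WT CD8 and 8.85 in WT CD4, and 7.41 points less frequent in KO CD4 (-7.41). Over all genes the same split gave medians of -3.73 in KO CD8, 5.25 in WT CD8, 2.78 in KO CD4 and 5.32 points in WT CD4.

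Read against that background, a share lower by at least 10 points in cells with Cd69 was seen for 27.9% of 7837 genes in KO CD8, 8.37% of 8631 in WT CD8, 9.95% of 7706 in KO CD4 and 5.66% of 7175 in WT CD4, and S1pr1 was among them in 0 of the 4 groups. A share higher by that much was seen for 8.89%, 35.2%, 24% and 30.8% of those genes, with S1pr1 among them in KO CD8. Genes with a lower value than S1pr1 were 7739 of 7837 in KO CD8, 5357 of 8631 in WT CD8, 1107 of 7706 in KO CD4 and 4854 of 7175 in WT CD4, so S1pr1 stood near the top in KO CD8 and low in KO CD4. Both values moved with the processing. The S1pr1 value in KO CD8 ran from 1.51 to 39.1 points over 12 alternatives. That in KO CD4 ran from -15 to 19.3 points over 13. Spearman's rho between the levels of Cd69 and S1pr1 over the cells of a group was 0.33 in KO CD8, 0.09 in WT CD8, -0.09 in KO CD4 and 0.01 in WT CD4. With the number of genes detected taken out, it was 0.26, 0.11, -0.07 and 0.03. Cells with Cd69 had medians of 2754 genes in KO CD8, 3213 in WT CD8, 2712 in KO CD4 and 2482 in WT CD4, and cells without it 3140, 2743, 2569 and 2118. Their medians of estimated reads were 492998, 635409, 516503 and 355808 with Cd69, and 584263, 308673, 464260 and 244076 without it, so in WT CD8, KO CD4 and WT CD4 the cells with Cd69 were the deeper ones, and in KO CD8 those without it.

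**Figure D4:**
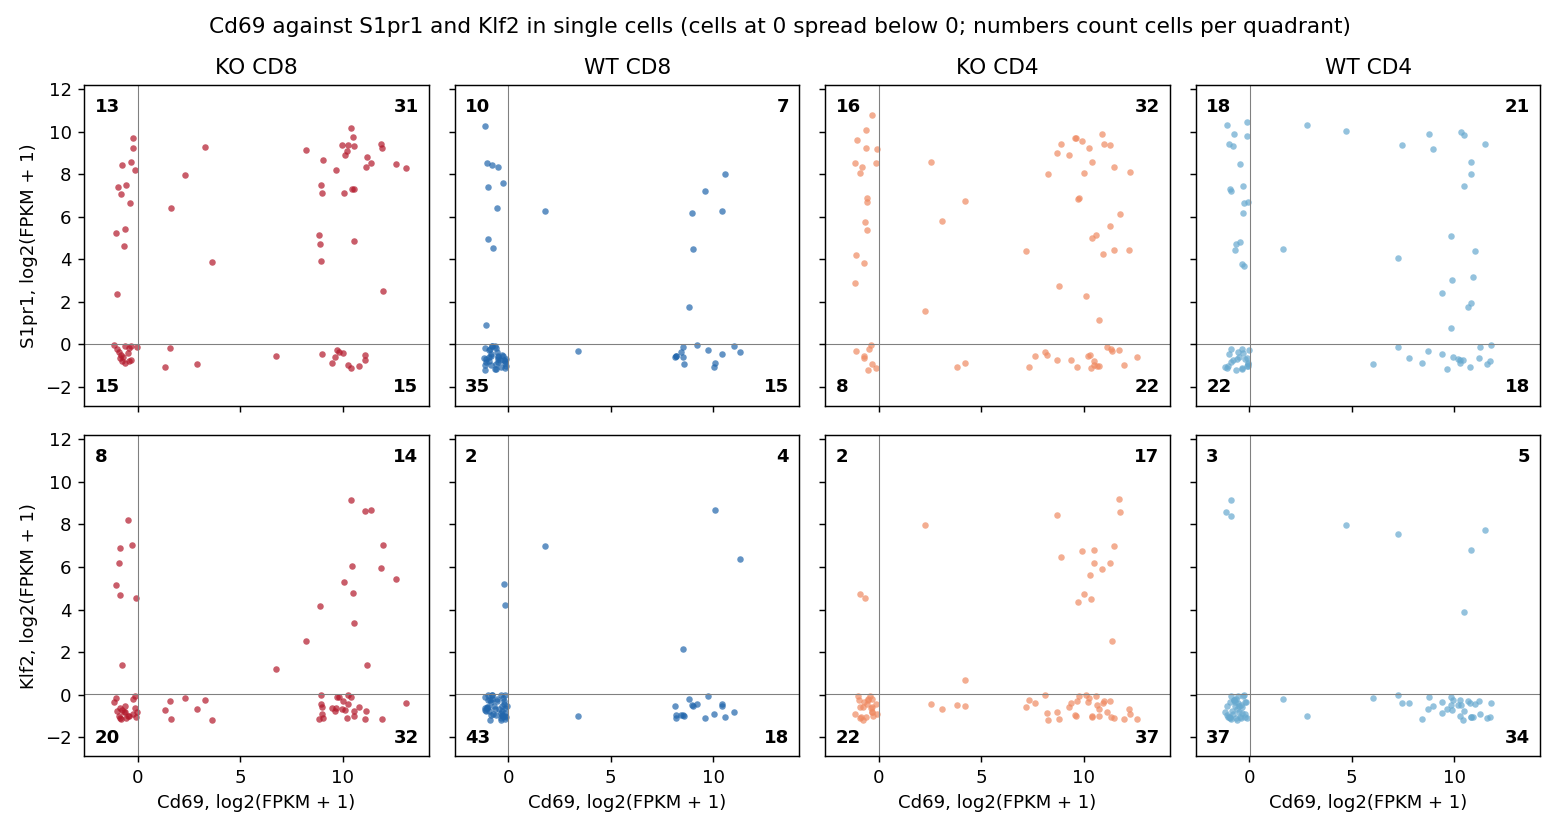
Cd69 level of each kept cell (x axis) against S1pr1 (top) and Klf2 (bottom), as log2(FPKM + 1), in KO CD8, WT CD8, KO CD4 and WT CD4. Cells at 0 are spread out below 0 and the numbers count cells in each quadrant. The upper right quadrants are filled: 31, 7, 32 and 21 cells hold both Cd69 and S1pr1, and 14, 4, 17 and 5 hold both Cd69 and Klf2.

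Klf2 was also found in cells with Cd69. It was in 14 of 46 KO CD8 cells with Cd69 (30.4%, 17.7 to 45.8%) and 8 of 28 without (28.6%, 13.2 to 48.7%), and in 4 of 22 WT CD8 cells with (18.2%, 5.19 to 40.3%) and 2 of 45 without (4.44%, 0.543 to 15.1%). In KO CD4 it was in 17 of 54 with (31.5%, 19.5 to 45.6%) and 2 of 24 without (8.33%, 1.03 to 27%), and in WT CD4 in 5 of 39 with (12.8%, 4.30 to 27.4%) and 3 of 40 without (7.50%, 1.57 to 20.4%). By these counts Klf2 was more frequent with Cd69 in each group, by 1.86, 13.7, 23.1 and 5.32 points, and all intervals overlapped. In WT CD4 the median over all genes was also 5.32 points. It was past 10 points in KO CD4, where 7545 of 7706 genes had a lower value, against 5578 of 7837 in KO CD8 and 3481 of 7175 in WT CD4, and in WT CD8, where it was in too few cells to be among the genes counted above. Over the alternatives the Klf2 value ran from 3.33 to 45.8 points in KO CD4 and from 3.62 to 15.7 in WT CD8. In KO CD8 it ran from -15.6 to 15.4, with the same sign in 7 of 12 alternatives. In WT CD4 it ran from -1.67 to 13.1, with the same sign in 12 of 13. The rho with Cd69 was 0.18 in KO CD8, 0.23 in WT CD8, 0.27 in KO CD4 and 0.06 in WT CD4, and 0.14, 0.23, 0.31 and 0.07 with genes detected taken out. All 3 of Cd69, S1pr1 and Klf2 were found in 12 of 74 KO CD8, 1 of 67 WT CD8, 10 of 78 KO CD4 and 5 of 79 WT CD4 cells.

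S1pr1 and Klf2 were next read by the level of Cd69. Cells with Cd69 were divided at the median of their own group. S1pr1 was in 18 of 23 KO CD8 cells above that median (78.3%), 13 of 23 at or below it (56.5%) and 13 of 28 without Cd69. The same counts were 4 of 11, 3 of 11 and 10 of 45 in WT CD8, 15 of 27, 17 of 27 and 16 of 24 in KO CD4, and 10 of 19, 11 of 20 and 18 of 40 in WT CD4. Klf2 was in 11 of 23, 3 of 23 and 8 of 28 in KO CD8, and in 10 of 27, 7 of 27 and 2 of 24 in KO CD4. In WT CD8 and WT CD4 the counts were 2 of 11, 2 of 11 and 2 of 45, and 3 of 19, 2 of 20 and 3 of 40. Cells above the Cd69 median thus held Klf2 most often in KO CD8, KO CD4 and WT CD4, the last on 8 cells with Klf2 in all, and in WT CD8 the counts above and up to the median were the same. Some of these directions turned with the choice of cells: without the cells holding 3 division genes, S1pr1 was less frequent with Cd69 in WT CD8 (-17.8 points) and WT CD4 (-3.47), and Klf2 in KO CD8 (-15.6). In KO CD4, S1pr1 was then at -15, further in its direction, but with no minimum of genes it was more frequent with Cd69 (19.3). With a gene counted only above 10 FPKM, S1pr1 was 12.5 points less frequent with Cd69 in WT CD4 (-12.5).

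By rho, the remaining pairs of the 6 genes were loosely tied at most. Over the 15 pairs and 4 groups, rho with genes detected taken out ran from -0.18 (Ccr7 with Cd44 in KO CD8) to 0.42 (Ccr7 with S1pr1 in WT CD4). Ccr7 went with S1pr1 at 0.24 in KO CD8, 0.28 in WT CD8 and 0.01 in KO CD4. Ccr7 and Klf2 gave 0.39 in both WT CD8 and WT CD4, 0.15 in KO CD8 and -0.0034 in KO CD4. The WT values rest on few cells, as both genes were in 2 of the 6 WT CD8 and 5 of the 8 WT CD4 cells with Klf2. Il7r and S1pr1 lay between 0.16 and 0.20 in all 4 groups and were found together in 36, 6, 31 and 30 cells of KO CD8, WT CD8, KO CD4 and WT CD4. Ccr7 and Cd44, which are used to tell naive from memory cells, gave -0.18 in KO CD8, -0.09 in WT CD8, -0.07 in KO CD4 and -0.14 in WT CD4. Of the cells with Ccr7, Cd44 was also present in 15 of 24 in KO CD8, 2 of 4 in WT CD8, 10 of 12 in KO CD4 and 5 of 16 in WT CD4.

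Counting Il7r, Ccr7, S1pr1 and Klf2 together showed how many cells carried the set. At least 3 of these 4 were above 0 in 24 of 74 KO CD8 cells (32.4%, 22 to 44.3%), 3 of 67 WT CD8 cells (4.48%, 0.933 to 12.5%), 15 of 78 KO CD4 cells (19.2%, 11.2 to 29.7%) and 13 of 79 WT CD4 cells (16.5%, 9.06 to 26.5%). None of the 4 was above 0 in 8 KO CD8 cells (10.8%), 37 WT CD8 cells (55.2%), 8 KO CD4 cells (10.3%) and 17 WT CD4 cells (21.5%). The cells without any had medians of 3261 genes in KO CD8, 3399 in WT CD8, 2342.5 in KO CD4 and 2438 in WT CD4, beside 2665, 2663, 2405 and 2145 in cells with at least 3, so they were poorer in genes in KO CD4 and richer in the other 3 groups. All 6 genes were above 0 in 2 KO CD8, 0 WT CD8, 0 KO CD4 and 1 WT CD4 cells, and the median number of the 6 was 3, 1, 3 and 3.

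**Figure D5:**
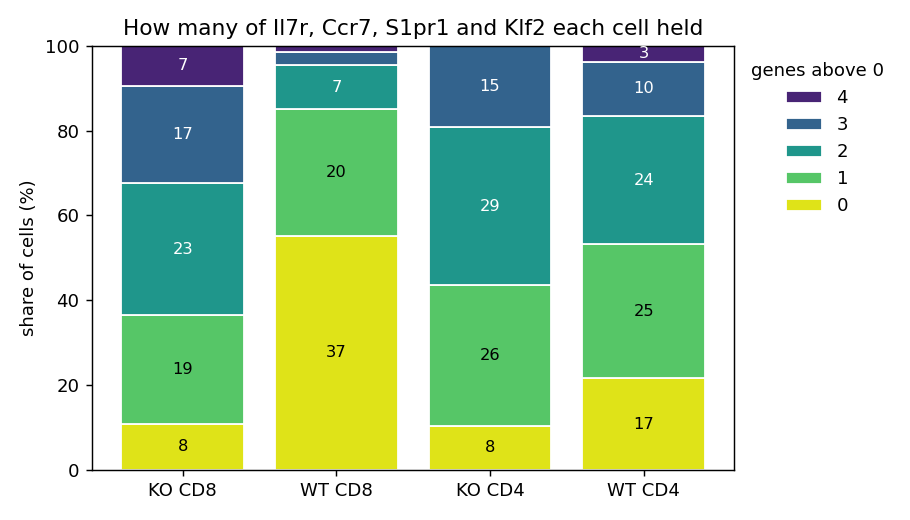
Share of kept cells, in percent, by how many of Il7r, Ccr7, S1pr1 and Klf2 were above 0 FPKM, for KO CD8, WT CD8, KO CD4 and WT CD4. Numbers in the bars count cells where 3 or more fall in a class. In WT CD8 37 of 67 cells held none of the 4, against 8 of 74 in KO CD8.

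Cells with division genes, cells with macrophage, class II or dendritic genes and Foxp3 cells carried the 6 genes to different extents. S1pr1 was in 10 of 25 KO CD8 cells with at least 3 division genes and in 34 of 49 without them, in 9 of 43 and 8 of 24 in WT CD8, 12 of 18 and 36 of 60 in KO CD4, and 5 of 22 and 34 of 57 in WT CD4. Cd69 was in 10 of 25 with and 36 of 49 without in KO CD8, 13 of 43 and 9 of 24 in WT CD8, 14 of 18 and 40 of 60 in KO CD4, and 8 of 22 and 31 of 57 in WT CD4. For Il7r the counts were 17 of 25 and 37 of 49, 9 of 43 and 8 of 24, 12 of 18 and 38 of 60, and 8 of 22 and 44 of 57. All 3 genes were thus less frequent with division genes in KO CD8, WT CD8 and WT CD4, and more frequent in KO CD4. Ccr7 went the other way in KO CD8, in 10 of 25 with and 14 of 49 without. Among KO CD8 cells, those with 3 macrophage, class II or dendritic genes had Cd44 in 10 of 10 and S1pr1 in 2 of 10, and the others had Cd44 in 46 of 64 and S1pr1 in 42 of 64. The 5 such WT CD8 cells had Cd44 in 2 and S1pr1 in 0, and the other 62 had Cd44 in 40 and S1pr1 in 17. Xcr1, of the dendritic list, was above 0 in 43.2% of KO CD8 and 58.2% of WT CD8 cells. For those cells 2 further genes met this rule. Foxp3, the regulatory T cell factor, was above 0 in 39 of 78 KO CD4 and 30 of 79 WT CD4 cells. S1pr1 was in 21 of 39 KO CD4 cells with Foxp3 and 27 of 39 without, and in 8 of 30 WT CD4 cells with it and 31 of 49 without. Ccr7 was in 4 of 39 with and 8 of 39 without in KO CD4, and in 2 of 30 with and 14 of 49 without in WT CD4. Klf2 was in 5 of 39 with and 14 of 39 without in KO CD4, and in 4 of 30 with and 4 of 49 without in WT CD4.

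Genes that work with the 6 were read from 8 lists, chosen with earlier results of these data known and counting the 6 where they belong. The counts stand beside 5.94% of all genes called higher and 3.82% lower between KO CD8 and WT CD8, and 7.73% and 0.342% between KO CD4 and WT CD4. On the IL-7 axis, 6 of 13 genes compared were called higher in KO CD8 than in WT CD8 cells and 0 lower, with a median of 0.82. Il2rg, which makes the receptor chain that Il7r pairs with, was 1.90 higher. In KO CD4 cells 5 of 13 were called higher and 0 lower, led by the feedback inhibitors Cish (2.84) and Socs1 (1.83), although Il7r itself was not called there. Of the sphingosine 1-phosphate genes, 2 of 10 were called higher in CD8, S1pr1 and S1pr4 (1.55), a related receptor, and 1 of 8 in CD4, Gnai2 (1.10), which makes the G protein subunit these receptors signal through. The lymph node homing list had 3 of 8 called higher and 1 lower in CD8, with the integrin chains Itgb7 at 3.62 and Itga4 at -1.62, and 1 of 8 higher in CD4, Itgb7 at 1.44. FOXO, KLF and quiescence genes had 4 of 13 called higher and 0 lower in CD8, with Tcf7 at 2.54 and Satb1 at 1.95. In CD4 they had 0 of 12 called either way, with Tcf7 at -0.76 and Klf13 at -0.99. Between the CD8 population libraries, KO minus WT, S1pr4 differed by only 0.18, Itgb7 by 0.11 and Itga4 by -0.52. Il2rg (1.07), Tcf7 (2.09) and Satb1 (1.34) differed there by more than 1.

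Residency genes had 3 of 13 called higher and 1 lower in CD8. Higher were Cd69, Nr4a1, an early antigen receptor target (1.60), and Rgs1 (1.09), and Bhlhe40 (-1.08) was lower. The other 9 ran from -0.82 (Cd101) to 0.72 (Itgae). In CD4 cells 4 of 11 were called higher and 0 lower, with Rgs2 at 2.05 and Nr4a1 at 1.96. Activation surface genes had 2 of 10 called higher and 1 lower in CD8, with Ptprc, which makes CD45, at 1.20 and Itga4 again the lower 1, and 3 of 10 higher and 1 lower in CD4, with Itgb1 at 1.39 and Cxcr3 at -1.72. Immediate early genes, which also rise during cell handling, had 10 of 18 called higher and 1 lower in CD8, with a median of 1.32 and with Ppp1r15a at 3.78 and Junb at 3.74, and 10 of 18 higher and 0 lower in CD4, with a median of 1.31 and with Ier2 at 3.64 and Nfkbia at 2.90. Cd69 is induced together with such genes, and how far that bears on its KO values was not tested. Type 1 interferon also brings on Cd69. Of its target genes 2 of 8 were called higher in CD8, Usp18 (1.21) and Irf7 (1.01), and 0 lower. In CD4, 1 of 9 was called higher and 0 lower, and Ifit1, not called, stood at 0.61. The medians of the S1P, homing, quiescence, residency, activation surface and interferon lists were -0.01, 0.72, 0.35, 0.16, 0.75 and 0.44 in CD8 and 0.04, 0.51, 0.05, 0.69, 0.58 and 0.45 in CD4. The IL-7 list had 0.83 in CD4.

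Among genes present in 20% or more of the cells in all 4 groups, those whose levels ranked most like each of the 6 over the cells of a group were sought, with genes detected taken out and rho averaged over the 4 groups, out of 3494 or 3495 genes compared. Tcf7, a naive and memory cell transcription factor, came first for Il7r (0.33), Ccr7 (0.38) and S1pr1 (0.44). Next were Emb (0.31) and Dgka (0.30) for Il7r, Lef1 (0.36) and Abcg1 (0.30) for Ccr7, and Dgka and Pdcd4 (both 0.36) for S1pr1. Lef1 is a partner of Tcf7, and Dgka makes a kinase that dampens antigen receptor signals. For S1pr1 the rho with Tcf7 was 0.35 in KO CD8, 0.41 in WT CD8, 0.49 in KO CD4 and 0.50 in WT CD4. Klf2 was nearest to Junb, Il17ra (both 0.24) and Fos (0.23), with values in KO CD4 of 0.04, 0.08 and 0.09. Cd69 was nearest to Fos (0.32), Emb and Ddx24 (both 0.29), and farthest from E2f1 (-0.20), Psmc2 and Tigit (both -0.18). Fos and Junb make AP-1 factors, and E2f1 a factor of DNA replication. Cd44 was nearest to Zfp36l2, Cxcr3 and Cd82 (each 0.29). Cells of a group share their source and differ in depth, so these values describe the cells read and carry no p.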

How the data were processed

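Single T cells and population samples were read by Smart-seq2, a full-length method without molecular identifiers, per the labels' protocols. The deposited FPKM values were made by the authors with RSEM and Bowtie on mm10, per the submitters' processing notes, and scaled by TMM, per the labels; versions and annotation are not given in the sources used here. FPKM hides depth, so reads per cell were estimated from the steps of low values, of which 55.3% were whole reads within 0.1. On simulated data (60 libraries, 21777 genes) the estimate came within 25% of the true depth in 96.7% of libraries, with a median of 0.90 times the true depth. The simulated counts were all whole reads, so they do not show how the estimate fares with values between whole reads. The estimate is weak for Il7r and lacks usable steps for Ccr7, so their thinned shares are approximate.

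Levels are means of log2(FPKM + 1), which understates changes of low genes, and shares have exact 95% Clopper-Pearson intervals. Called means a difference of at least 1 (log2), or of 10 points for the Cd69 split, among genes above 0 in at least 10% of cells. With 1 sample per genotype and cell type no test was made and the spread between mice is not measured. Cells had separate libraries, and no doublet caller was run. No column was left unmapped.

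The 6 genes and the gene lists were chosen with earlier results of these data known. Named genes are the 6, the 2 per list with the largest KO minus WT difference, and the 3 most like each of the 6 (for Cd69 also the 3 least like); other genes of a small count were named after their values were seen. Some genes that the rule names are not reported here. Thinning, leaving out cells under 100000 reads and leaving out the 2 highest KO cells were chosen after seeing the data. Alternatives varied gene minimums, detection limits, pseudocounts, scaling, bins of genes detected, library numbers and subsets of cells. Python 3.11.15, numpy 2.4.6, pandas 2.3.3, SciPy 1.17.1 and matplotlib 3.10.9 were used.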

Additional observations from a re-analysis of the deposited data

Results flagged for a closer look

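For 4 of the 6 genes the KO minus WT difference had opposite directions in CD8 and CD4 over single cells or between population libraries, on the log2(FPKM + 1) scale. Over single cells this held for Ccr7 alone, and Il7r (4.20 in CD8 and 0.23 in CD4), S1pr1 (2.84 and 0.96) and Klf2 (1.09 and 0.66) had the same direction in both. None of these differences between cell types was tested, since each rests on 1 sample per genotype and cell type. For Il7r the population libraries gave 3.24 in CD8 and -0.47 in CD4. Ccr7 gave 2.53 in CD8 and -0.50 in CD4 over single cells, and 3.24 in CD8 and -1.17 in CD4 between population libraries. S1pr1 gave 0.87 in CD8 and -0.62 in CD4 between population libraries. Klf2 gave 4.57 in CD8, with 1.32 FPKM in the WT library, and -0.24 in CD4 between population libraries. The CD4 values set p2 titles (KO) against p3 titles (WT), which cannot be told apart from genotype.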

How the results depend on the processing

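No paired analysis was possible because each genotype and cell type is 1 sample, and for the same reason no replicate could be left out. Among the differences in the share of cells, over the alternatives, 24 had at least 1 of their 2 shares outside its own exact interval, which does not say that the difference itself moved beyond counting error, and 1 reversed. Of the recomputed log2 differences, 120 (39.2%) changed by over 1.5 times, in sign or across the size of 1, and 0 of those called reversed. Il7r ranged from 2.56 to 5.82 for KO minus WT in CD8, and from -0.68 to 1.22 in CD4, with the same sign in 9 of 13. Causes of the changes below were not tested. Few cells lay behind Ccr7 in WT CD8 (4) and Klf2 in WT CD8 (6) and WT CD4 (8). Without the 2 KO CD4 cells highest in each gene, the KO over WT ratio of mean FPKM reversed to 0.97 for Il7r, 0.91 for S1pr1 and 0.70 for Klf2.

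In percentage points, KO minus WT in CD8, Cd44 reversed to -0.35 without cells lacking B2m or Cd3. With no minimum of genes, Il7r was at 40.6, Cd69 at 26.6 and Cd44 at 15.1. Il7r was at 51.3 above 10 FPKM, Klf2 at 22.6 in even library numbers and Cd69 at 35.97 without cells with 3 proliferation genes. For KO minus WT in CD4, Cd69 was at 15.96 and Cd44 at 18.1 with no minimum of genes, and Il7r at -13.9 without proliferating cells. Without Foxp3 cells, S1pr1 was at 5.97, Klf2 at 27.7 and Cd44 at 37.7. For KO CD8 minus KO CD4, Il7r was at 4.44, Cd69 at -7.45 and Cd44 at -0.83 with no minimum, Cd69 at 6.80 without proliferating cells, and Klf2 at -6.17 and Cd44 at -8.94 without Foxp3 cells. For WT CD8 minus WT CD4, Il7r was at -43.9 without proliferating cells and -45.8 above 10 FPKM, S1pr1 at -37.9 without Foxp3 cells, Klf2 at -2.59 in even numbers, and Cd44 at 2.13 with no minimum and 18.1 without cells lacking B2m or Cd3.

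Of the 6 genes, 2 were called higher in KO CD4 than in WT CD4. This was 1 with no minimum of genes, with a minimum of 2000 genes, without cells lacking B2m or Cd3, without cells with macrophage or class II markers, without proliferating cells, at a pseudocount of 10 and with each cell rescaled to 1 common sum. It was 4 at a pseudocount of 0.1 and without Foxp3 cells, and 1 was called lower without proliferating cells. For KO CD8 minus KO CD4, 2 in place of 1 were called higher without proliferating cells, and 1 in place of 0 lower in even numbers, at a pseudocount of 0.1 and without Foxp3 cells. For WT CD8 minus WT CD4, 2 in place of 4 were called lower in bins of 500 genes.

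For the Cd69 split, S1pr1 in WT CD8 was at -17.8 without proliferating cells and 29.4 in odd numbers, and Klf2 there at 11.1 in even numbers. In KO CD4, S1pr1 was at 19.3 with no minimum and Klf2 at 45.8 in odd numbers. The lowest Klf2 value in KO CD4 over 13 alternatives was 3.33. In WT CD4, S1pr1 was at -3.47 without proliferating cells, -12.5 above 10 FPKM and 17.2 without Foxp3 cells.

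With all genes above 0 in any cell as the background, the share called higher and lower was 3.44% and 2.22% for KO minus WT in CD8, 4.21% and 0.187% in CD4, 4.59% and 1.66% for KO CD8 minus KO CD4, and 7.87% and 1.16% for WT CD8 minus WT CD4. By Cd69, with that background, genes found in more cells were 5.72% in KO CD8, 21.8% in WT CD8, 14.9% in KO CD4 and 17.3% in WT CD4, and in fewer cells 5.54% in WT CD8 and 3.50% in WT CD4. With genes above 0 in 20% of cells, 11.7% were called higher in KO CD4 than in WT CD4.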
